A study of Mus musculus with 12 samples.

Results

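Of the 17358 genes in the deposited expression table of mouse brain perivascular macrophages, 8 Kruppel-like factor genes (Klf2, Klf3, Klf4, Klf6, Klf7, Klf9, Klf10 and Klf13) were taken by gene symbol and followed through all 12 libraries. Perivascular macrophages (PVM) sit between the vessel wall and the brain tissue around it. The design compared C57BL mice aged 18 months (aged, 5 libraries) with young adults aged 3 months (young, 7 libraries), and the labels give no treatment, transgene or mutation for either group. RNA was copied and amplified with SMART-seq2, which makes full-length cDNA from very little RNA and does not mark the strand. The labels call the libraries biological replicates without saying how many animals or cells were used for each. P-values therefore measure only how far these libraries spread, which may be technical in part. Nor do they give a sort marker, sex or batch.

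Kruppel-like factors are zinc finger transcription factors that bind GC-rich elements and the CACCC box in promoters and enhancers, and they are close relatives of the Sp factors. Some act mainly as activators, others recruit corepressors such as CtBP or Sin3a, and several are induced within minutes to hours by growth factors, hormones, cytokines or fluid shear. In macrophages Klf2 and Klf4 are known for restraining NF-kB dependent inflammatory genes, Klf4 also for monocyte differentiation and alternative activation, and Klf6 for promoting inflammatory gene expression.

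All 8 genes are protein coding. On the GRCm38.p6 assembly, RefSeq places Klf2 (Entrez gene 16598) at chr8:72319062-72321654, Klf4 (16600) at chr4:55527137-55532475 and Klf6 (23849) at chr13:5861489-5870393. Klf3 (16599) lies at chr5:64803521-64832901, Klf7 (93691) at chr1:64029448-64122345 and Klf9 (16601) at chr19:23141226-23168129. Klf10 (21847) lies at chr15:38291464-38300711 and Klf13 (50794) at chr7:63886351-63938915. No member shares a chromosome with another.

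Library totals ranged from 23214836 to 30628787 estimated counts, and 3 counts corresponded to 0.098 to 0.129 CPM (counts scaled to the same library size). Of 17358 genes, 9550 passed the filter on low counts and were tested, all 8 members among them. All 12 genes of a perivascular macrophage marker list were in the table, with a summed level of 11710 to 18350 CPM in aged and 12580 to 21900 CPM in young libraries. A list of 10 microglia markers summed to 4008 to 6088 and 3810 to 7498 CPM. The first principal component of all tested genes, with 15.5% of the variance, set aged libraries 1, 3 and 4 (scores -76.1, -95.1 and -104.8) apart from the 9 others, whose scores ran from 10.8 to 47.6. Differences between the ages are therefore given with and without these 3 libraries for every member. For other genes both are given where leaving the 3 libraries out moved the log2 fold change by over 1.5 times. Fos, Nfkbia and Ccl5, named further below, were not checked in this way. In bulk libraries such as these, fewer cells of a type and less RNA per cell cannot be told apart.

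The sequences upstream of Klf2, Klf4 and Klf6 are shown because these 3 genes were by far the most abundant members and varied together across the libraries. They are RefSeq promoter sequences of GRCm38.p6, written 5′ to 3′ on the strand of the gene, with each GC box (GGGCGG on either strand), an element that Sp and Kruppel-like factors bind, in capitals.
Klf2, chr8:72318812-72319032, plus strand: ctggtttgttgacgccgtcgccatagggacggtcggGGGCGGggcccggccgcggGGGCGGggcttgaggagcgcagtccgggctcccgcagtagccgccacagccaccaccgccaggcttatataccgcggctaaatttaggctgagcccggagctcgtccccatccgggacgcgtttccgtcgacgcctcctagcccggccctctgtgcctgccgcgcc
Klf4, chr4:55532476-55532725, minus strand: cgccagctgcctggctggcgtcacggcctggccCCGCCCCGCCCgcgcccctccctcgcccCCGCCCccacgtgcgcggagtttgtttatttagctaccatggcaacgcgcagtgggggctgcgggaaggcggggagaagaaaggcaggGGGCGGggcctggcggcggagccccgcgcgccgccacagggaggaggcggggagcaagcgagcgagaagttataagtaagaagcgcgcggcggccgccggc
Klf6, chr13:5861239-5861481, plus strand: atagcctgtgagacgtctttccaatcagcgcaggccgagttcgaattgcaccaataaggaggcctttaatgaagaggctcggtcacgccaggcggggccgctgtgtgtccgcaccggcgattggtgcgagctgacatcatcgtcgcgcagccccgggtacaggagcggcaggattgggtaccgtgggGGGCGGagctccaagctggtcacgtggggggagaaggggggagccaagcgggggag
Within the Klf2 stretch lies a match to the MEF2 site, in capitals in the 40 bases around it.
Klf2, chr8:72318929-72318968, plus strand: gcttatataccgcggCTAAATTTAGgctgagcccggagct

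Promoter windows of 300 bases, 250 before and 50 after the RefSeq start, were matched for 7 of the 8 members (not Klf10) and searched on both strands. GGGCGG was found in 6 of the 7 windows, against 35.7% of 32851 windows of the same length over all genes. Klf4 held 4 matches, Klf2 held 2 and Klf6 held 1 at position -63 from the start. CACCC, a box that the family is known to bind, was found in 5 of the 7 windows, against 57.5% of all windows, and not in those of Klf4 and Klf6. MEF2 factors act at the end of the MEK5-ERK5 route that induces Klf2 and Klf4. Their site, searched by its consensus, matched 1 of the 7 windows, that of Klf2 at position -118, against 0.557% of all windows. The cyclic AMP response element TGACGTCA (1.79% of all windows) and the CArG box of serum response factor (1.63%) matched 0 of the 7. A match describes the letters in the window and not a bound site.

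Levels of different genes were compared per transcript length, as FPKM, which scales reads by transcript length and library size. Klf2, known for its induction by shear stress in endothelium and for keeping T cells and monocytes quiescent, had the highest level of the 8, at 531 ± 172 FPKM (SD, n = 12), above 97.8% of tested genes. Klf4 followed at 362 ± 159 FPKM, and Klf6 at 333 ± 142 FPKM. Together these 3 genes made up 91.8% to 97.5% of the members' summed FPKM in each library. The level then fell steeply: Klf3, a repressor that recruits CtBP, stood at 19.3 ± 9.02 FPKM, and Klf10, the TGF-beta inducible early gene, at 17.1 ± 6.96 FPKM. Klf13, which recruits Sin3a and is known as an activator of Ccl5 in T cells, stood at 11.2 ± 5.84 FPKM. Klf7, best known for its role in axon growth, stood at 9.74 ± 8.72 FPKM, and Klf9, a glucocorticoid-induced gene, at 1.77 ± 2.06 FPKM.

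Neighbours in this order, by mean log2(FPKM + 0.1), were compared within libraries by an exact two-sided sign-flip permutation test, with p-values adjusted over the 7 neighbour pairs. Klf2 was above Klf4 in 11 of 12 libraries, by 0.61 ± 0.33 on the log2 scale (SD, n = 12, exact adjusted p = 0.00342). Klf6 was above Klf3 in 12 of 12, by 4.15 ± 0.94 (SD, exact adjusted p = 0.00342). Klf10 was above Klf13 in 9 of 12 (0.67 ± 0.96, exact adjusted p = 0.0308), and Klf7 above Klf9 in 10 of 12 (2.94 ± 2.80, exact adjusted p = 0.00912). Klf10 was above Klf13 in every aged library, with aged means of 20.13 and 7.972 FPKM. The young means were closer, at 15.01 and 13.56 FPKM, and Klf10 was below Klf13 in young libraries 1, 2 and 5. The order of this pair was not tested within each age. The other neighbours did not differ beyond their spread, with exact adjusted p = 0.492 for Klf4 and Klf6, 0.619 for Klf3 and Klf10 and 0.362 for Klf13 and Klf7. The spread was widest for the 2 least abundant members: the coefficient of variation of FPKM over the 12 libraries was 32.3% for Klf2, 43.8% for Klf4 and 42.7% for Klf6, but 89.5% for Klf7 and 117% for Klf9. For Klf7, the FPKM and the place in the order also depended on the transcript length assigned in each library, given below.

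**Figure D1:**
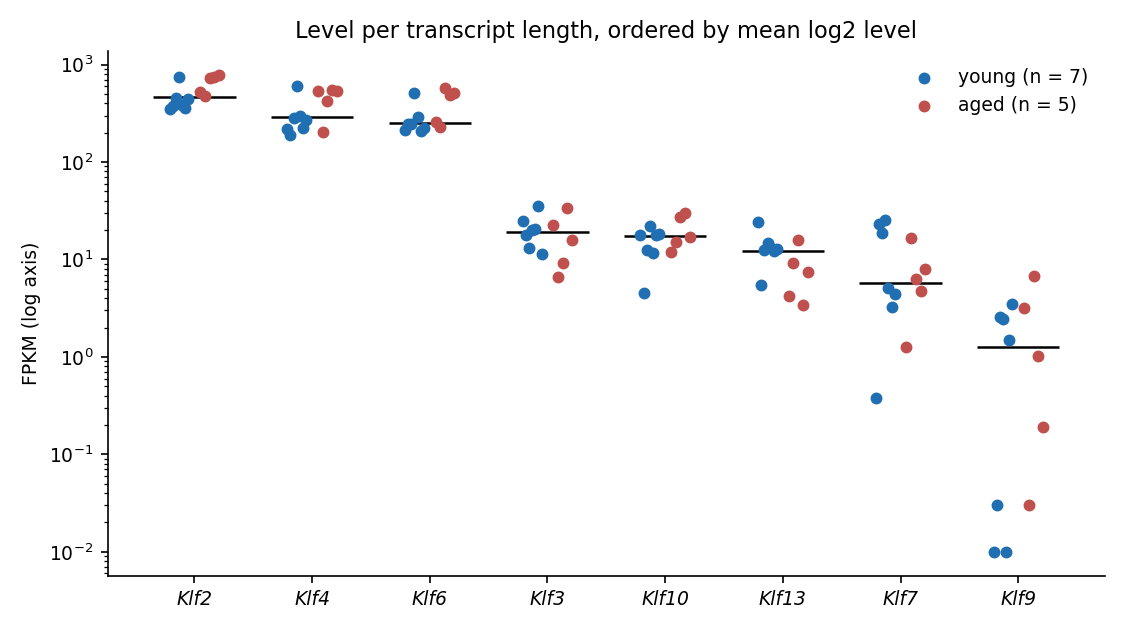
Level of each Kruppel-like factor per transcript length (y axis, FPKM, log scale) in the 7 young (blue) and 5 aged (red) libraries, with the median of all 12 as a line. Klf2, Klf4 and Klf6 lie between 188 and 789 FPKM in every library, and the other members reach at most 35.7 FPKM.

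The question behind the 2 age groups is what changes in macrophage gene expression as the mice grow old. Klf2, Klf4 and Klf6 had higher mean levels in aged libraries, by 1.67, 1.73 and 1.69 times, but no member passed the adjusted threshold of 0.05, and for each member the aged and young values overlapped. Levels of 1 gene across libraries are given as CPM with TMM scaling, which adjusts library sizes for differences in composition. Fold changes and p-values come from edgeR's quasi-likelihood test over the 9550 tested genes, with log2 fold changes written as aged over young.

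Klf2 stood at 999, 856, 1530, 1539 and 1229 CPM in aged libraries 1 to 5, and in young libraries at 579.6 (lowest), 704 (median) and 1041 (highest). Each aged library was above the young median and 3 were above every young library, while aged libraries 1 and 2 lay below the highest young one. The means were 1231 ± 307.5 (SD, n = 5) and 738 ± 149.9 CPM (SD, n = 7), with a log2 fold change of 0.74 ± 0.20 (SE), unadjusted p = 0.00219 and edgeR adjusted p = 0.286. With DESeq2, Klf2 passed the threshold, with a log2 fold change of 0.69 and a DESeq2 adjusted p = 0.0412. Across all settings tried the adjusted p ranged from 0.0412 to 0.9997.

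Klf4, a regulator of monocyte differentiation, stood at 1744, 624, 1492, 1905 and 1438 CPM in aged libraries 1 to 5, and at 603.9, 760 and 1463 CPM (lowest, median, highest) in young ones. Aged library 2 lay among the young libraries, and young library 4 lay among the aged ones. The means were 1441 ± 494 (SD, n = 5) and 834 ± 287 CPM (SD, n = 7), a log2 fold change of 0.79 ± 0.27 (SE) with unadjusted p = 0.00914 and edgeR adjusted p = 0.454.

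Klf6, known as an injury-induced factor, stood at 1165, 969, 2811, 2363 and 1910 CPM in aged libraries 1 to 5, and at 855, 1001 and 1707 CPM (lowest, median, highest) in young ones. Aged libraries 3, 4 and 5 were above every young library, and aged library 2 was below the young median. The means were 1843 ± 780.3 (SD, n = 5) and 1088 ± 284 CPM (SD, n = 7), a log2 fold change of 0.76 ± 0.26 (SE) with unadjusted p = 0.00934 and edgeR adjusted p = 0.454.

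The same libraries stood at the ends of the groups in all 3 genes: aged library 2 was the lowest aged library for each, and young library 4 the highest young one for each. Without aged library 2 the log2 fold changes were 0.85, 0.98 and 0.93 for Klf2, Klf4 and Klf6 (edgeR adjusted p = 0.0633, 0.0584 and 0.1004). Without aged libraries 1, 3 and 4 they were 0.49, 0.29 and 0.39, each smaller by more than 1.5 times. Each stayed positive in all 27 alternative settings.

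**Figure D2:**
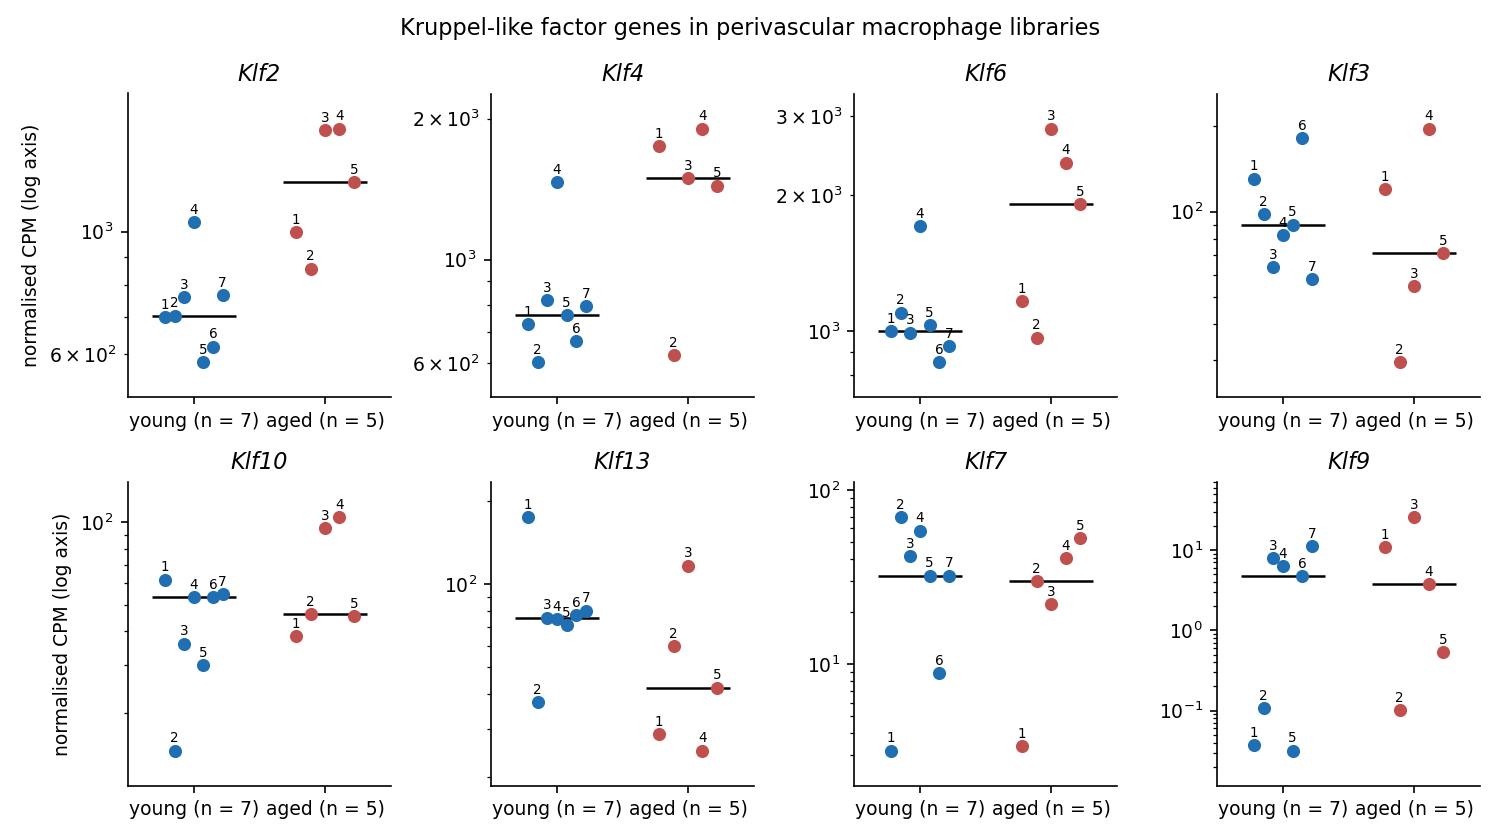
Normalised level (y axis, CPM with TMM scaling, log scale) of the 8 members in the young (blue, n = 7) and aged (red, n = 5) libraries, with library numbers beside the points and the group median as a line. For Klf2, Klf4 and Klf6 3 aged libraries lie above every young one, young library 4 lies among the aged libraries, and the groups overlap for all 8 genes.

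The other 5 members gave no unadjusted p under 0.05. Klf10 stood at 38.3, 46.0, 95.4, 104.7 and 45.2 CPM in aged libraries 1 to 5 and at 14.6, 53.2 and 61.7 CPM (lowest, median, highest) in young ones. Only aged libraries 3 and 4 were above every young library, and the 3 others were below the young median. The log2 fold change of 0.60 ± 0.47 (SE, edgeR adjusted p = 0.999) came to 0.36 without aged library 4 and to 0.07 without aged libraries 1, 3 and 4. Klf13 was the member with the lower mean in aged libraries by the widest margin, 54.5 ± 37.5 (SD, n = 5) against 84.6 ± 42.6 CPM (SD, n = 7), 0.644 times. Its aged values were 28.6, 59.6, 117, 24.9 and 42.2 CPM in libraries 1 to 5, 4 of them below the young median of 75.7, and its young values ran from 37.3 to 175.4 CPM. Its log2 fold change was -0.64 ± 0.47 (SE, unadjusted p = 0.194, edgeR adjusted p = 0.999), and -0.73 without aged libraries 1, 3 and 4. It stayed negative in all 27 alternative settings, from -1.13 without aged library 3 to -0.39 without young library 1.

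Klf3 stood at 120.0, 29.5, 54.5, 196 and 71.4 CPM in aged libraries 1 to 5 and at 57.8, 89.9 and 180.9 CPM (lowest, median, highest) in young ones. Both the lowest and the highest of its 12 values came from aged libraries, and its change on the log2 scale was -0.09 ± 0.44 (SE, edgeR adjusted p = 0.999). Without aged libraries 1, 3 and 4 it was -1.01. Klf7 stood at 3.38, 30.0, 21.97, 40.6 and 52.8 CPM in aged libraries and at 3.18, 32.2 and 69.8 CPM (lowest, median, highest) in young ones, with 1 very low library in each group. Its change on the log2 scale was -0.24 ± 0.79 (SE, edgeR adjusted p = 0.999), and 0.22 without aged libraries 1, 3 and 4.

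Klf9 was near the counting floor in some libraries and well above it in others. Its estimated counts were 271, 3, 515, 79 and 16 in aged libraries 1 to 5 and 1, 3, 237, 201, 1, 139 and 337 in young libraries 1 to 7. At most 3 counts were thus found in 1 aged and 3 young libraries, and at least 100 in 2 aged and 4 young ones. The log2 fold change was 0.93 ± 1.62 (SE, edgeR adjusted p = 0.999), and -3.77 without aged libraries 1, 3 and 4. With counts this uneven between libraries, no difference was detectable. The same on-and-off pattern, at most 3 counts in 1 library and at least 100 in another, was common: 51.1% of all tested genes showed it, and Klf9 was the 1 member of 8 that did.

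Set against all genes, the adjusted edgeR test called 0.0105% of tested genes in either direction (1 gene) and 0 of the 8 members. At an unadjusted edgeR p under 0.05, 3.85% of tested genes were higher in aged libraries and 2.12% lower, against 3 and 0 of the 8 members. DESeq2 called 0.67% of tested genes higher at an adjusted p under 0.05, and 1 of the 8 members, Klf2. The bias-adjusted mode of edgeR called 0.377% higher, and 0 of the 8. Aged and young values did not overlap for 0.597% of tested genes and for 0 of the 8. The log2 fold change was positive for 5 of the 8 members, with a median of 0.67, and for 49.5% of all tested genes, with a median of -0.01. The members were proposed with earlier results of these data known, so these counts describe them and are no independent support.

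**Figure D3:**
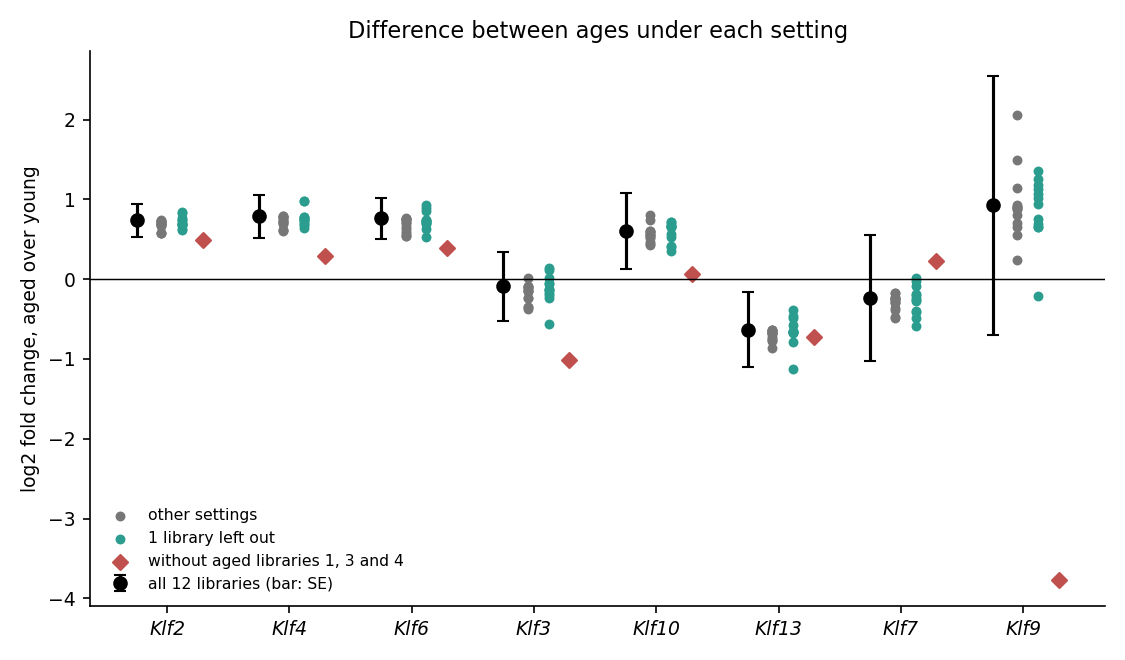
Log2 fold change of each member, aged over young (y axis), from all 12 libraries (black, bar SE), under other tools, scalings, filters and units (grey), with each library left out in turn (green) and without aged libraries 1, 3 and 4 (red). Klf2, Klf4 and Klf6 stay above 0 and Klf13 stays below 0 in every setting, while Klf3, Klf7 and Klf9 cross 0.

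Klf2 and Klf4, the closest in known function, were compared within libraries as a ratio of counts, which does not depend on library scaling. The log2 ratio of Klf2 to Klf4 was -0.80, 0.46, 0.04, -0.31 and -0.23 in aged libraries 1 to 5 and ran from -0.49 to 0.22 in young libraries. Its means were -0.17 ± 0.46 (SD, n = 5) and -0.14 ± 0.24 (SD, n = 7). The difference of -0.03 was smaller than the spread in either group (exact two-sided permutation p = 0.893 over 792 splits), and its sign changed with single libraries. Without aged libraries 1, 3 and 4 it was 0.26 (exact permutation p = 0.306). Aged library 1, with less Klf2 than Klf4, and aged library 2, with more, stood at the 2 ends of the range.

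Klf2, Klf4 and Klf6 varied together across the 12 libraries. On log2(CPM + 1), Pearson's r was 0.92 for Klf2 and Klf6 (permutation p = 9e-05, adjusted over 28 pairs 0.00252), 0.85 for Klf2 and Klf4 (permutation p = 0.00063, adjusted 0.00882) and 0.80 for Klf4 and Klf6 (permutation p = 0.00238, adjusted 0.0222). These were the 3 of 28 member pairs past the threshold. Spearman's rho was 0.74, 0.76 and 0.70, with adjusted permutation p = 0.106, 0.106 and 0.127, and no pair passed by rank. Without the 2 libraries farthest from the median, r was 0.82, 0.80 and 0.90. With the mean of each age group removed, r was 0.90 (adjusted permutation p = 0.0028), 0.76 (0.0472) and 0.69 (0.125). Leaving out young library 4 and aged library 2, the farthest from the median on that scale, brought these to 0.82, 0.43 and 0.25, so the last 2 rested on those libraries. The permutations on that scale did not allow for the removed means, so their p-values can be too small.

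The relation within young libraries rested on young library 4. Over the 7 young libraries r was 0.80 for Klf2 and Klf6, 0.84 for Klf2 and Klf4 and 0.84 for Klf4 and Klf6. Over the 6 young libraries without young library 4 it was 0.09, 0.29 and -0.22. Over all 11 libraries without it r was 0.92, 0.86 and 0.79 (adjusted permutation p = 0.0101, 0.0259 and 0.0649). No coefficient is given over the 5 aged libraries alone. Among the remaining pairs the highest r was 0.63, for Klf2 and Klf10 (adjusted permutation p = 0.186), which fell to 0.23 without aged libraries 3 and 4. Klf13 had negative coefficients with Klf2, Klf4 and Klf6 (-0.33, -0.41 and -0.20), none past the threshold.

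**Figure D4:**
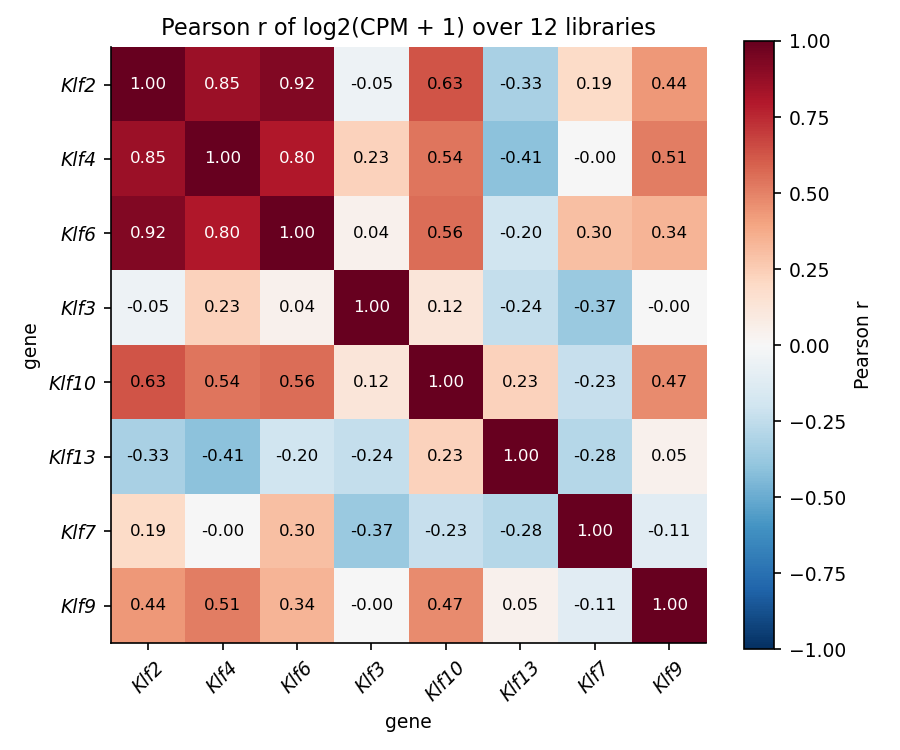
Pearson's r of log2(CPM + 1) between the 8 members (both axes) over the 12 libraries, from -1 (blue) to 1 (red). Klf2, Klf4 and Klf6 form a block of coefficients from 0.80 to 0.92, and no other pair exceeds 0.63.

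Among the 9549 other tested genes, those most like each member by Pearson's r over the same 12 libraries are given as a description. For Klf2 they were Tra2b (r = 0.95) and Sfpq (0.94), which encode splicing factors, and the salt-inducible kinase Sik1 (0.94), with Klf6 7th and Klf4 41st. For Klf6 they were Mcl1, which encodes an anti-apoptotic Bcl2 relative (r = 0.98), the RNA helicase gene Ddx5 (0.95) and Tra2b (0.95). For Klf4 they were Lypd1 (r = 0.95), Spred2 (0.93), an inhibitor of Ras signalling, and Lrrn4cl (0.92). Klf10 was closest to Kitl (r = 0.88), Klf13 to Gtpbp8 (0.93), Klf3 to Arl14ep (0.88), Klf7 to Ext2 (0.94) and Klf9 to Ipmk (0.88). The points share libraries that stand apart as a whole, such as aged libraries 1, 3 and 4.

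Klf7 differed from the other members in the transcript length behind its values. A count and an FPKM of the same gene and library together imply the length that the authors' estimate assigned to its transcripts. For Klf7 this was 7385 to 7489 bases in 5 libraries (2 aged, 3 young) and 1761 to 2983 bases in the 7 others (3 aged, 4 young). GENCODE M21 annotates Klf7 transcripts of 1477, 7662 and 553 bases. The longest implied length was 4.25 times the shortest, a ratio that 0.236% of 3819 genes with a length in every library reached, where the median gene had 1.05. For the other members the ratio was at most 1.18, in Klf3. Libraries with similar Klf7 counts could hence differ in FPKM, as in aged library 2, with 889 counts and 16.6 FPKM, and young library 7, with 976 counts and 4.37 FPKM. With library-specific lengths in the fit the log2 fold change of Klf7 was -0.49 in place of -0.24. Exons of Klf7 share 39.3% of their 8131 bases with the non-coding gene Gm26649 on the opposite strand, and reads of both cannot be told apart without strand, so the level of Klf7 is uncertain. For Klf3 the shared part, with Gm20033, was 3.59%.

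**Figure D5:**
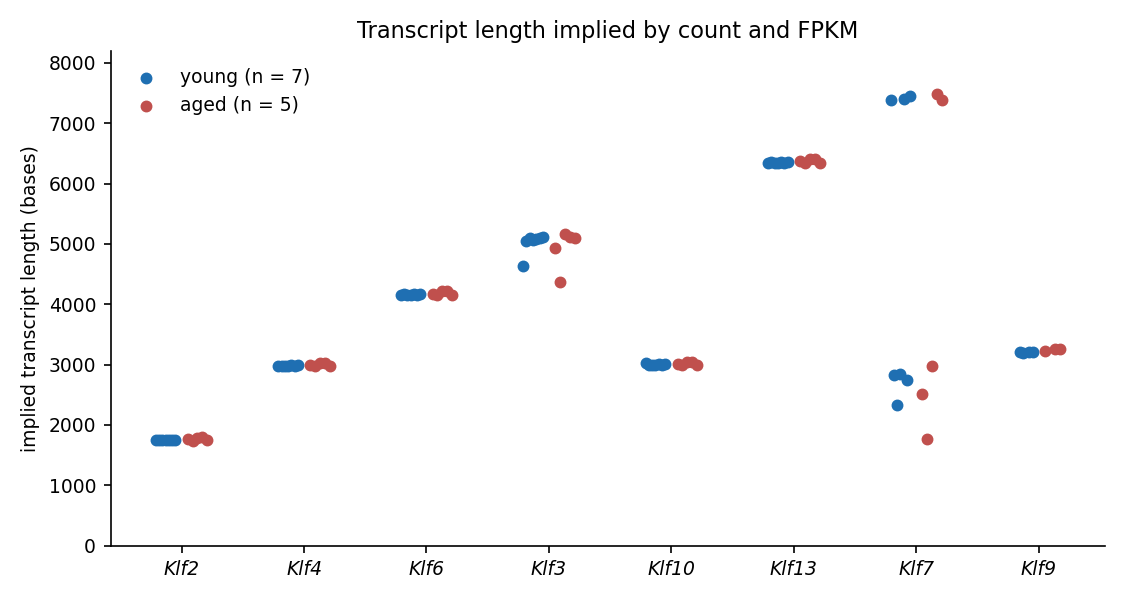
Transcript length implied by the count and the FPKM of each member (y axis, bases) in young (blue) and aged (red) libraries. Klf7 falls into a set of libraries at 7385 to 7489 bases and a set at 1761 to 2983 bases, with both ages in each. The other genes vary by at most 1.18 times, and Klf9 is drawn for the 7 libraries with enough reads.

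Of the 9 other Kruppel-like factor genes in the table, Klf11 and Klf16 were tested. Klf11, a Sin3a-recruiting relative of Klf10, had 0, 72, 626, 2 and 369 counts in aged libraries 1 to 5, and from 0 to 651 in young ones, with a log2 fold change of 0.21 ± 1.88 (SE, edgeR adjusted p = 0.999). Klf16 had at most 168 counts in aged and 545 in young libraries, with a log2 fold change of -1.62 ± 1.93 (SE, edgeR adjusted p = 0.999). Without aged libraries 1, 3 and 4 these were -0.14 for Klf11 and -0.62 for Klf16. Klf16 also moved to -3.76 without aged library 5 and to -0.35 without young library 2. Both genes went from 0 counts to over 100 within each age group. Of the sister family, 4 Sp genes were tested, 2 with a positive log2 fold change, with a list median of 0.25. Sp3, which competes with Sp1 for GC boxes, stood at 212 ± 118 (SD, n = 5) against 108.0 ± 30.1 CPM (SD, n = 7), with unadjusted p = 0.0126 and edgeR adjusted p = 0.509. Sp2 stood at 19.5 ± 11.5 against 13.5 ± 6.39 CPM. The log2 fold change of Sp3 was 0.97, and 0.26 when aged libraries 1, 3 and 4 were left out, and that of Sp2 was 0.53, and 0.08 when they were left out.

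No gene of the pathway lists around the family passed the adjusted threshold of the edgeR test described above, while Skil, Vcam1 and Junb passed under other settings given with them. Of 7 tested genes of the MEK5-ERK5-MEF2 route, 5 were positive and 0 had an unadjusted p under 0.05, with a median of 0.30. Mef2a, a MEF2 factor, stood at 239 ± 87.9 (SD, n = 5) against 164 ± 48.4 CPM (SD, n = 7), and Mapk7, which encodes ERK5 itself, at 1.15 ± 1.85 against 5.83 ± 5.86 CPM. Of 14 tested cofactor genes 10 were positive, with a median of 0.20 and 0 at an unadjusted p under 0.05. Among them the corepressor subunit gene Hdac1 stood at 19.3 ± 11.8 against 38.3 ± 13.5 CPM, and the coactivator gene Ep300 at 29.4 ± 10.9 against 15.6 ± 8.02 CPM. Leaving out aged libraries 1, 3 and 4 moved Mapk7 from -2.33 to -1.01 and Hdac1 from -0.99 to -0.43 on the log2 scale.

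Genes known as induced by Klf2 or Klf4 in vessels or leukocytes had a median of 0.08 over 7 tested, 5 positive and 0 at an unadjusted p under 0.05. Mrc1, the mannose receptor of perivascular macrophages, stood at 2575 ± 342 (SD, n = 5) against 2229 ± 444 CPM (SD, n = 7), and the cell cycle inhibitor gene Cdkn1a at 55.7 ± 40.9 against 41.9 ± 17.2 CPM. The log2 fold change of Cdkn1a was 0.41, and 0.74 without aged libraries 1, 3 and 4. Of 9 tested NF-kB dependent genes, which Klf2 and Klf4 are known to oppose, 2 were higher and 1 lower at an unadjusted p under 0.05, with a median of 0.07. Vcam1, a leukocyte adhesion molecule, stood at 1036 ± 188.5 against 538 ± 146 CPM, with all 5 aged libraries above every young one (edgeR adjusted p = 0.187, and 0.00653 with DESeq2). The chemokine gene Ccl2 stood at 5063 ± 1847 against 2770 ± 1100 CPM (edgeR adjusted p = 0.428), and its log2 fold change fell from 0.87 to 0.24 without aged libraries 1, 3 and 4. Ccl5 was the lower one, at 0.31 ± 0.19 against 8.86 ± 8.89 CPM (edgeR adjusted p = 0.785). It reached at most 0.47 CPM in aged libraries and was also at 0 CPM in young libraries 3 and 4.

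Of 7 tested TGF-beta early response genes, the group to which Klf10 belongs, 6 were positive and 3 were higher at an unadjusted p under 0.05, with a median of 1.04. Skil, which encodes a SMAD corepressor, stood at 1750, 492, 4117, 2220 and 1484 CPM in aged libraries 1 to 5 and at 338 to 695.7 CPM in young ones. The aged over young log2 fold change was 1.93 ± 0.35 (SE, edgeR adjusted p = 0.0798). Without aged libraries 1, 3 and 4 it was 0.88 (edgeR adjusted p = 0.9997). Skil passed the threshold without aged library 2 (edgeR adjusted p = 0.00395), in the bias-adjusted mode of edgeR (adjusted p = 0.000544), without the filter on low counts (edgeR adjusted p = 0.0225) and with DESeq2 (adjusted p = 7.05e-05). Pmepa1 stood at 86.6 ± 23.6 (SD, n = 5) against 42.1 ± 9.65 CPM (SD, n = 7, edgeR adjusted p = 0.512). Of 8 tested glucocorticoid-induced genes, the group of Klf9, 4 were positive and 0 had an unadjusted p under 0.05, with a median of 0.17. Dusp1 stood at 6821 ± 909 against 5233 ± 1543 CPM, and Sgk1 at 126 ± 23.9 against 160 ± 87.7 CPM. The log2 fold change of Dusp1 was 0.38, and 0.20 without aged libraries 1, 3 and 4.

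Several members belong to the early response to stimulation and cell isolation, so 23 other immediate-early and dissociation-linked genes were set beside them. Of 21 tested, 12 were positive, and 2 were higher and 2 lower at an unadjusted p under 0.05. Fos and Hspa1b were the higher ones. Junb was lower in aged libraries, 189 ± 70.6 (SD, n = 5) against 415 ± 97.5 CPM (SD, n = 7), with edgeR adjusted p = 0.187 and a DESeq2 adjusted p = 0.00386, and Nfkbia was the other. The list summed to 14360 to 20130 CPM in aged and 13140 to 24450 CPM in young libraries, and young library 4, where Klf2, Klf4 and Klf6 were high, stood at 18920 CPM. The highest sum, 24450 CPM, was that of young library 3, where Klf2, Klf4 and Klf6 stood at 760, 819 and 994 CPM. The part of the immediate-early and dissociation-linked genes in the members' differences was not tested.

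Endothelial cells, neighbours of these macrophages that express Klf2 and Klf4 strongly, left few reads. Flt1, Ly6c1 and Tek had at most 3 counts in every library, and Cldn5 and Pecam1 reached at most 1.35 and 1.69 CPM. Other markers were higher in single libraries. Slco1a4 stood at 27.74 CPM in young library 2 and reached at most 1.282 CPM elsewhere. Itm2a stood at 12.99 CPM in aged library 5 and 5.177 CPM in young library 5. Kdr stood at 4.318 CPM in aged library 5 and 2.698 CPM in young library 7. The 10 endothelial markers summed to 8.01 to 55.9 CPM in aged and 15.2 to 88.0 CPM in young libraries, mostly from Egfl7, and young library 4 had the lowest young sum. In contrast, the 7 choroid plexus and ependymal markers did separate the ages, with 608, 1132, 527, 1314 and 255.7 CPM in aged libraries 1 to 5 and 63.2 to 183 CPM in young ones. Aged library 4 had the highest of these sums and the highest Klf2 and Klf4. Aged library 2 had the second highest sum and the lowest aged Klf2, Klf4 and Klf6, and young library 4 had the lowest sum of all 12. The microglia markers given above summed higher than either list, at 3810 CPM or more in every library. The part of endothelial, choroid plexus, microglial or other RNA in the members' levels was not tested.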

How the data were processed

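Brain perivascular macrophage libraries, 5 from aged and 7 from young adult mice, were grouped by their labels. The authors deposited 1 table with estimated counts per gene and normalised values without a named unit, read as FPKM because the deposited values scale with the inverse of library total and transcript length. Per the submitters' processing notes, RSEM 1.2.12, HISAT2 2.0.4, DESeq2 1.4.5 and Bowtie2 2.2.5 were used on GRCm38 (mm10), with no role or order given. A gene annotation was not given in the sources used here. Libraries were oligo-dT primed and carry no molecular identifiers, so amplified copies count as separate reads and floors cover counting error only. Of the estimated counts, with zeros included as whole, 88.2% to 90.6% per library were whole, and all were rounded. FPKM sums ran from 720216 to 884648 per library. Gene symbols (65) were replaced through Entrez identifiers, 17244 of 17358 of which matched RefSeq.

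Ages were compared in R 4.3.3 with edgeR 4.0.16 (quasi-likelihood test, legacy estimation, robust, TMM scaling, filterByExpr, Benjamini-Hochberg adjusted p under 0.05), tested on simulated data. Standard errors came from the F statistic. DESeq2 1.42.0, limma 3.58.1, other scalings and filters, FPKM (pseudocounts 1 and 0.1), a replicate block and left-out libraries were alternatives. The level order used log2(FPKM + 0.1), the ratio counts plus 0.5, and correlations 100000 permutations. Implied lengths needed 20 counts and 0.2 FPKM.

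Named genes were the members, tested family genes, the 2 genes of smallest unadjusted p in each pathway list, and the 3 genes most like each member (the closest 1 for less abundant members). Fos, Ccl5, Nfkbia and the endothelial markers were named after their values were seen. Members, lists and rules were chosen with earlier results of these data known.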

Additional observations from a re-analysis of the deposited data

Results flagged for a closer look

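In 4 of the 18 groups of values checked, 1 library stood apart from the rest by a criterion set to be met by chance in about 1 in 20 groups. In these data each young library met it on the high side in 1.53% to 2.84% of all tested genes. These shares are for 1 library and the high side only, so they cannot be set against the 1 in 20, which is for a whole group. A high flag in any of the 7 young libraries was more common than each share. Young library 4 stood apart for 3 members at once: Klf2 at 1041 CPM, where the next young library had 766, Klf4 at 1463 CPM (next 818.8) and Klf6 at 1707 CPM (next 1100). The same library stood apart on the high side in 2.64% of all tested genes, and in 1.19% of the 1509 genes of at least 100 CPM on average. Young library 1 stood apart for Klf13, at 175.4 CPM against 80.4 CPM in the next, and on the high side in 2.84% of all tested genes and in 1.72% of those of at least 100 CPM.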

How the results depend on the processing

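The number of genes called among all tested was 1 with all libraries, and 121 with DESeq2, 38 with the bias-adjusted mode of edgeR, 13 without a filter on low counts, 6 and 0 on FPKM with pseudocounts of 1 and 0.1, 4 with upper quartile scaling, 3 with library totals and 2 with voom. It ranged from 0 to 75 with 1 library left out, 75 without aged library 2, and was 0 without aged libraries 1, 3 and 4. The cause was not tested. Of the members, 1 (Klf2) was called with DESeq2 and 0 in every other setting, single libraries left out included (0 to 0).

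Deviations of same-numbered libraries from their group means correlated at 0.009, 0.0003, -0.037, -0.009 and 0.085, so the numbers were not taken to pair the libraries. With the replicate block on libraries 1 to 5 of each group, 0 genes were called, as in the same 10 libraries unpaired, a setting chosen after seeing the data (0). With the block the log2 fold changes of Klf11 (-1.75), Cdkn1a (-0.33) and Sgk1 (0.18) had the opposite sign to those from all 12 libraries. Klf11 was already negative in the same 10 libraries unpaired (-0.080), where Cdkn1a (0.14) and Sgk1 (-0.048) kept their sign.

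The difference in the Klf2 to Klf4 log2 ratio ranged from -0.18 to 0.13 with 1 library left out, was 0.13 without aged library 1, 0.0068 without aged library 4 and 0.033 without young library 2, and 0.26 without aged libraries 1, 3 and 4 (exact permutation p = 0.306). Klf3 turned to 0.14, 0.017 and 0.11 without aged library 2, aged library 3 or young library 6, and to 0.014 in libraries 1 to 5 unpaired. Klf7 turned to 0.015 without aged library 1, and to 0.22 without aged libraries 1, 3 and 4. Klf9 turned to -0.21 without aged library 3, and to -3.77 without aged libraries 1, 3 and 4. Klf11 turned to -0.029 and -0.025 on FPKM (pseudocounts 1 and 0.1), to -1.13, -0.060, -0.030 and -0.022 without aged library 3 or young library 1, 5 or 6, to -0.14 without aged libraries 1, 3 and 4, and to -0.080 in libraries 1 to 5 unpaired. Cdkn1a turned to -0.15 with voom and to -0.29 and -0.52 on FPKM. The median of all genes shifted to -0.13 with voom and library totals, -0.17 and -0.25 on FPKM and -0.15 with the block. The order of levels held 4 differing neighbour pairs with either pseudocount, and 2 member pairs stayed correlated past the threshold with group means removed or, a setting chosen after seeing the data, without young library 4. With group means removed, Klf2 and Klf4 passed only narrowly (adjusted permutation p = 0.0472). With single libraries left out, the log2 fold change ranged from -0.56 to 0.14 for Klf3, -0.59 to 0.015 for Klf7, -0.21 to 1.36 for Klf9, 0.36 to 0.71 for Klf10, -1.13 to 0.70 for Klf11, -1.13 to -0.39 for Klf13 and -3.76 to -0.35 for Klf16. SEs of 1.62 to 1.93 limit what could be detected for Klf9, Klf11 and Klf16.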

Other observations

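The untested family genes were nearly absent but not in every library. In young library 1 Klf8 had 780 counts, against 0 in each other library. Klf15, a glucocorticoid-induced factor, had 331 counts in aged library 1, 743 in young library 2 and 303 in young library 5, and at most 2 elsewhere. Klf12 had 20 and 53 counts in aged libraries 1 and 4, 167 in young library 3 and at most 3 elsewhere. Klf1, Klf5, Klf14 and Klf17 had at most 2 counts in any library.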
